A study of Mus musculus with 41 samples.

Results

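The cartilage matrix genes are 8 mouse genes chosen by symbol for their place in cartilage: Sox9, Acan, Hapln1, Matn1, Matn3, Matn4, Chad and Epyc. All 8 were found among the 22438 genes with ribosome footprint counts and among the 55385 genes with RNA estimates. They were followed through ribosome-protected fragments (RPFs), the pieces of mRNA that a translating ribosome shields from nuclease, and through poly(A)-selected RNA-Seq. The data come from mice and cells labelled as knockouts of Hbs1l or Pelo, which encode partner proteins that split stalled ribosomes, or of Upf2, which encodes a component of nonsense-mediated mRNA decay.

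Cartilage resists load because a very large proteoglycan, aggrecan (Acan), is held along chains of hyaluronan by a link protein (Hapln1) inside a network of type II collagen. Matrilins (Matn1, Matn3, Matn4) are adaptor proteins that join collagen fibrils to proteoglycans, chondroadherin (Chad) and epiphycan (Epyc) are small proteins of the leucine-rich repeat family that bind the matrix or its cells, and Sox9 is the transcription factor that switches on this gene set in chondrocytes. Several of the genes also work outside cartilage: Hapln1 in the matrix of the early heart and in nets around neurons, and Sox9 in neural crest and glia.

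Footprint libraries came from embryos, fibroblasts and cerebella, each in 3 replicates per group. Whole E8.5 embryos of strain C57BL/6NJ were Hbs1l-/- or wild type, with 5 embryos pooled per replicate. Primary mouse embryonic fibroblasts (MEFs), labelled C57BL/6, were derived from single embryos at E13.0. The CAG-Cre ER transgene, a Cre recombinase that tamoxifen activates in most cell types, was present in knockout-labelled and control MEFs alike. All were treated with 4-hydroxytamoxifen at 1 µM for 48 hours. Knockout-labelled MEFs started from Hbs1l fl/-, Pelo fl/fl or Upf2 fl/fl embryos, whereas controls carried Cre without a floxed allele. All MEFs carried the B6J allele of the neuronal tRNA n-Tr20. Each knockout-labelled set had its own 3 control footprint libraries, and RNA came from 3 control, 3 Hbs1l-/-, 2 Pelo-/- and 3 MEF samples labelled Upf2-/-. In the study's methods each MEF replicate is the cells of a separate embryo. Cerebella at P14, with Tg(Atoh1-Cre) driving deletion of Hbs1l in granule cells or with Cre alone, were used for levels only.

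Footprint libraries held 2634480 to 7298812 coding-region counts in embryos and 5782990 to 25607974 in MEFs, and RNA libraries 22713643 to 86425762 estimated counts. The targeted gene was measured first. In log2 units, Hbs1l fell by 3.60 in Hbs1l-/- embryos and by 4.15 (footprints) and 2.78 (RNA) in Hbs1l-/- MEFs, and Pelo fell by 3.78 and 6.15 in Pelo-/- MEFs. Upf2 went the other way: 114 ± 3.01 CPM (counts scaled to library size; SD, n = 3) in libraries labelled Upf2-/- against 53.8 ± 4.68 in their controls, a log2 difference of 1.09, and RNA was higher by 1.33. Gene-level counts cannot show whether the floxed exons are missing, so these samples are called the libraries labelled Upf2-/- throughout. The same-numbered control footprint libraries of the 3 MEF sets differed little beyond counting noise (chi-square per gene 1.1 to 1.19, against 4.07 to 11.7 between different numbers), so the 3 sets share control material and comparisons against them are not independent. Fibroblast markers fitted the MEF label: 10 of 10 had counts in every MEF group and summed to 33852 to 41847 CPM of footprints, against 1655 to 2873 in embryos.

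Positions are those of the GRCm38 annotation (Gencode M21). Sox9 (ENSMUSG00000000567.5) lies at chr11:112782224-112787760 on the plus strand, and Chad (ENSMUSG00000039084.8) on the same chromosome at chr11:94565047-94569127. Acan (ENSMUSG00000030607.7) spans chr7:79053483-79115099 and Hapln1 (ENSMUSG00000021613.9) chr13:89539796-89611652. The matrilins lie apart from each other, with Matn1 (ENSMUSG00000040533.7) at chr4:130944385-130955475, Matn3 (ENSMUSG00000020583.4) at chr12:8947929-8972028 and Matn4 (ENSMUSG00000016995.17), the only member on the minus strand, at chr2:164389393-164405160. Epyc (ENSMUSG00000019936.10) spans chr10:97644068-97682454. Footprints were counted over coding exons, whose union runs from 966 bases in Epyc and 1068 in Hapln1 to 6510 in Acan, so levels of different genes are compared only per kilobase of coding length.

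The promoters of Epyc, Matn3 and Acan, the members with a called footprint difference in 2 MEF sets (for Epyc under the limit given with its counts), are shown for context, as the 250 bases before the annotated RefSeq start (GRCm38.p6, plus strand for all). RefSeq promoters were matched for 7 of the 8 members; Sox9 had none in the table used. Capitals mark ACAATG or ACAAAG, forms of the core that SOX proteins bind, on either strand (CATTGT is ACAATG read on the minus strand). Either form is present in 25.2% of the 32851 mouse promoters searched over the same length, so a match is a description of the letters only. Epyc has 2 annotated starts, with windows at chr10:97643818-97644067 and chr10:97646853-97647102. The first holds 1 match and the second 3. The Matn3 window at chr12:8947679-8947928 and the Acan window at chr7:79052976-79053225 hold none, and the Acan window is 74.4% G or C.
Epyc, first start: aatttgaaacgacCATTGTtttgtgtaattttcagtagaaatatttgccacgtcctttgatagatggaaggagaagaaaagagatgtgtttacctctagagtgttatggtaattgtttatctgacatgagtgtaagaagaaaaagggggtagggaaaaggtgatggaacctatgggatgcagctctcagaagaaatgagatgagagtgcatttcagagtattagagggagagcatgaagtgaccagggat
Epyc, second start: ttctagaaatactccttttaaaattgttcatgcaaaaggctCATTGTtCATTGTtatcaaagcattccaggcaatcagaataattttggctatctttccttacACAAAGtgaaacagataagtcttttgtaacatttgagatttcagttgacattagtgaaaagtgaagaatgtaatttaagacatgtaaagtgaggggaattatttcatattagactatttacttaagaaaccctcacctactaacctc
Matn3: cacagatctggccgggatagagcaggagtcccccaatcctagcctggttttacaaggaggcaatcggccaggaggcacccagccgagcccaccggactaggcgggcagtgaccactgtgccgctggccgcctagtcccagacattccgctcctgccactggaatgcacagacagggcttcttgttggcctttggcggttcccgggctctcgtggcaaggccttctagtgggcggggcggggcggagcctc
Acan: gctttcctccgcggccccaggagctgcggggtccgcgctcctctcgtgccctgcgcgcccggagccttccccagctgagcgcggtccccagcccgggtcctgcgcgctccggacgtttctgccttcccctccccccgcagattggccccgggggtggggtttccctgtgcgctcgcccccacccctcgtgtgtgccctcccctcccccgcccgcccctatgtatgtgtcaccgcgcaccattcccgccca

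Before any comparison, the 8 genes differed widely in level and in where they were translated. In wild-type embryos Hapln1 stood first at 251 ± 11.3 footprint CPM per kilobase of coding sequence (SD, n = 3), followed by Sox9 at 46.5 ± 13.4 and Matn3 at 5.18 ± 1.07. The other 5 members were at 0.683 or less, and their neighbours in the order did not differ beyond their SDs. At E8.5 no cartilage has formed, and Matn1, Matn4, Acan, Chad and Epyc had at most 10 counts in any embryo library.

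In control MEFs the order changed. Sox9 led at 35.5 ± 1.43 CPM per kilobase in the controls of the Hbs1l set, Matn3 (4.36 ± 0.431) and Acan (3.98 ± 0.666) followed without differing beyond their SDs, and Matn4 was at 1.96 ± 0.143. Hapln1 was at 0.921 ± 0.674, Epyc at 0.403 ± 0.365, Matn1 at 0.36 ± 0.538 and Chad at 0.0804 ± 0.139. Neighbours in this order overlapped, whereas Hapln1 and Chad did not. In MEF RNA Sox9 also led per length, but Matn3 stood below Matn4 rather than above it. The levels were 4.65 ± 0.596 TPM (abundance scaled for transcript length and depth; SD, n = 3) for Sox9, 0.747 ± 0.26 for Acan, 0.73 ± 0.174 for Matn4 and 0.4 ± 0.0534 for Matn3, with the other 4 below 0.1 TPM on average. In control cerebella Sox9 (48.7 ± 0.445 CPM per kilobase) and Hapln1 (46.5 ± 8.13) did not differ beyond their SDs, Matn4 was at 9.09 ± 0.474 and Chad at 6.36 ± 1.46, and Matn3 was at 0.327 ± 0.214. Tissue and sequencing batch coincide, so levels were not tested between tissues.

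**Figure D1:**
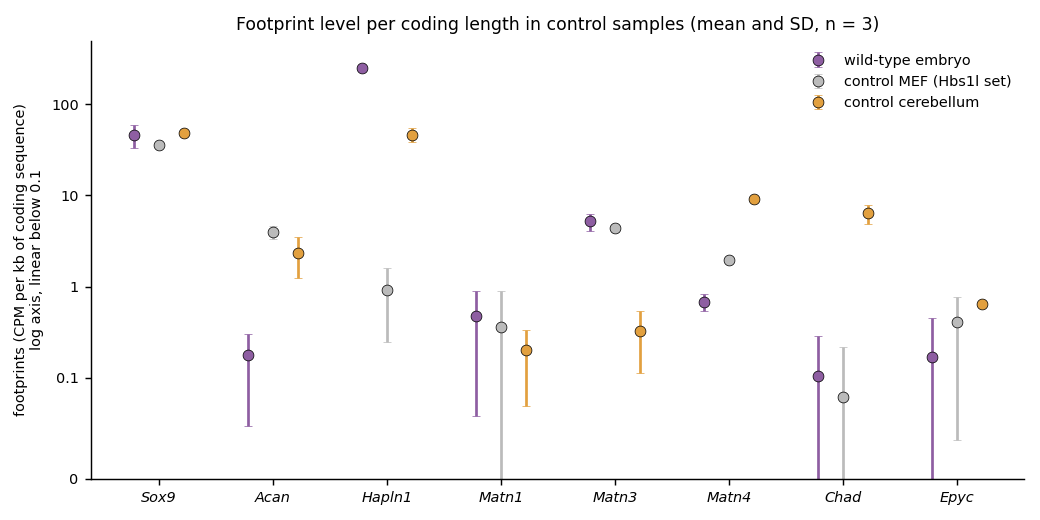
Footprint level of each of the 8 genes (CPM per kilobase of coding sequence, log axis; mean and SD of 3 libraries) in wild-type embryos, control MEFs of the Hbs1l set and control cerebella. Hapln1 leads in embryos at 251, Sox9 leads in MEFs at 35.5, and Chad and Matn4 have their highest means in the cerebellum. Sox9 (48.7) and Epyc (0.639) too have their highest means there. Tissue and sequencing batch coincide, so levels were not tested between tissues.

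In E8.5 embryos, the comparison asked whether loss of Hbs1l altered the few members translated at that stage. None passed the test. Sox9 was lower in every Hbs1l-/- library, with values below those of all wild-type libraries, and Hapln1 and Matn3 overlapped between genotypes. The collagen partner of these genes, Col2a1, which encodes the main fibril of cartilage, was 3-fold lower.

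Sox9 footprints were at 52.8, 44.3 and 47.7 CPM in Hbs1l-/- embryos and 56, 93.9 and 62.2 in wild type. The groups did not overlap, and 1 wild-type library lay well above the rest. The log2 difference was -0.56 (SE 0.2), with an adjusted p of 0.168 by edgeR's quasi-likelihood test. Hapln1 stood at 292, 228 and 155 CPM against 255, 269 and 280, a log2 difference of -0.25 (SE 0.19, adjusted p = 0.476). The mutant libraries spread on both sides of the wild-type ones. Matn3 was at 7.08, 7.59 and 7.21 CPM against 8.7, 7.99 and 5.75, with a log2 difference of -0.045 (SE 0.34, adjusted p = 0.959). Thus 0 of the 3 testable members were called, where 1.87% of all 11416 tested genes were; 1 had an unadjusted p under 0.05, and DESeq2 also called 0. Without Hbs1l-/- replicate 1 the test called 2309 genes, among them Sox9 (-0.64, adjusted p = 0.0411) and Hapln1 (-0.48, adjusted p = 0.037).

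Acan had 10, 8 and 5 counts in Hbs1l-/- embryos against 3, 8 and 1, and Matn4 7, 3 and 6 against 4 in each wild-type library. Epyc had 0 counts in the 3 mutant libraries and 0, 2 and 0 in wild type. These depths cannot show a difference for the 5 members below the filter on low counts. Col2a1 was at 56.6 ± 31.2 CPM against 172 ± 20.1, a log2 change of -1.58 (SE 0.28, adjusted p = 0.0136). It was the 1 gene called among 50 tested from 8 lists of cartilage-related genes. That share of 2% is near the 1.87% of all genes. The Hbs1l-/- embryos also differed in cell type markers. Trophoblast markers summed to 240 to 979 CPM against 121 to 157, with 4 of 6 tested higher and Prl3b1 at 0 in both genotypes. Erythroid markers summed to 3012 to 8459 against 12509 to 16279, with 2 of 6 called lower, 7 of 8 cardiomyocyte markers were lower, and neural and neural crest markers summed to 85.5 to 138 against 150 to 159, with 0 of 6 called. The osteoblast markers Bglap2, Dmp1 and Ibsp were at 0 in both genotypes. In bulk samples fewer cells of a type and less RNA per cell cannot be told apart, and the part of these marker shifts in the Sox9 and Col2a1 values was not tested.

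In MEFs, Acan, Matn3 and Sox9 changed in footprints in at least 1 set, and not in one direction. Acan rose 1.82-fold in Hbs1l-/- MEFs and 1.71-fold in the libraries labelled Upf2-/-. Matn3 fell 2.55-fold in Pelo-/- MEFs and 2.03-fold in the libraries labelled Upf2-/-. Epyc was 12.1-fold and 7.13-fold higher in the same samples, from control libraries with 2 to 6 counts each. It passed the filter on low counts only through the knockout-labelled libraries. Sox9 rose 1.27-fold in Pelo-/- MEFs. Of the members that passed the filter, 1 of 6 was called in Hbs1l-/- MEFs, against 34.1% of all genes tested. For Pelo-/- MEFs 3 of 6 were called against 44.1%, and in the libraries labelled Upf2-/- 3 of 6 against 43.4%, with Epyc 1 of the 3 in both. The last 2 shares are close to the background, so the counts themselves are not a result about these genes.

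**Figure D2:**
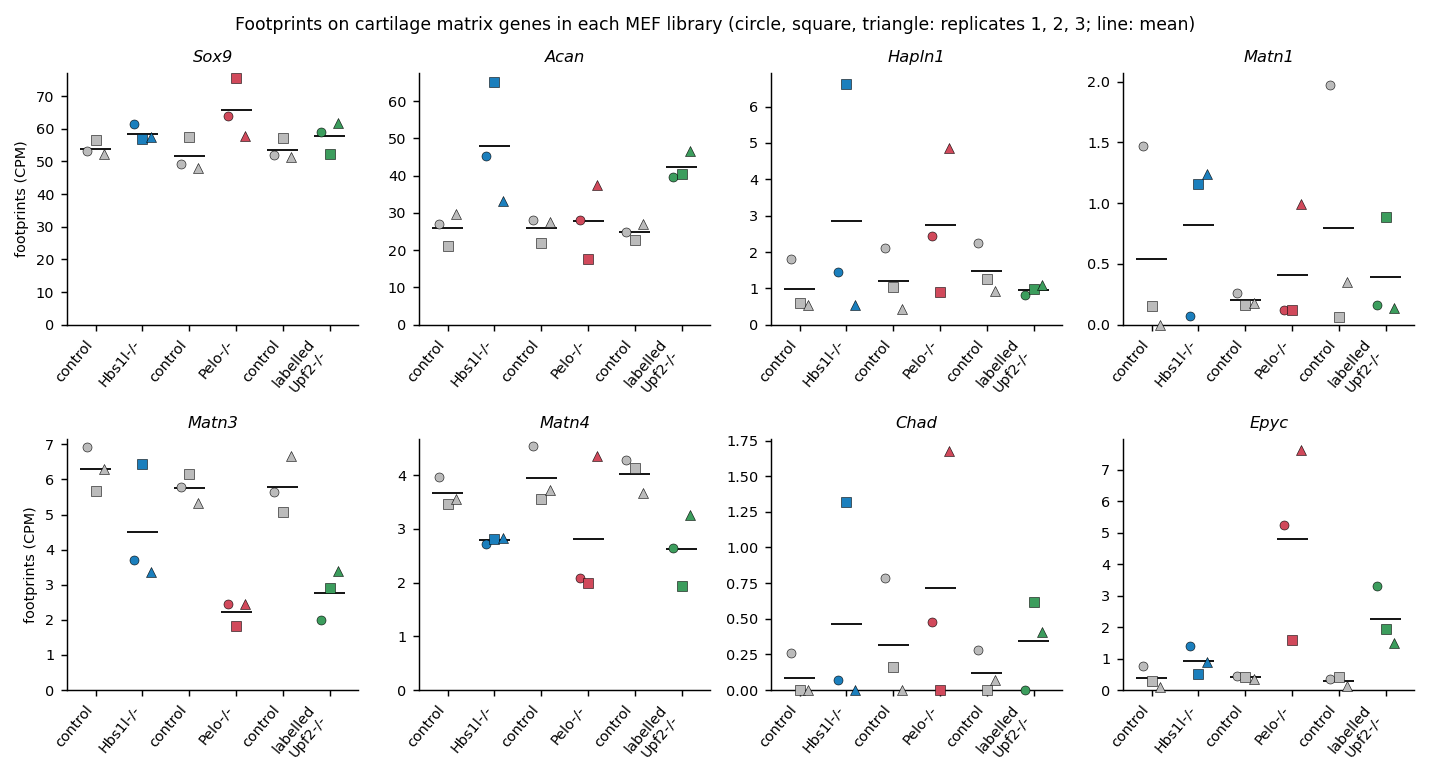
Footprint level (CPM) of each of the 8 genes in every MEF library, 1 panel per gene. A point marks each replicate and a bar the mean, for each knockout-labelled set and its own controls. Epyc lies above its controls in Pelo-/- MEFs and in the libraries labelled Upf2-/-, and Matn3 below them.

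Sox9, the regulator of the set, was the most translated member in MEFs. Its footprints were at 64, 75.6 and 57.7 CPM in Pelo-/- MEFs and at 49.3, 57.5 and 47.9 in their controls. The lowest mutant library was just above the highest control. The log2 difference was 0.35 (SE 0.11, adjusted p = 0.0268), and the call was lost when any of 4 libraries was left out (Pelo replicates 1 or 2, control replicates 1 or 3; highest adjusted p 0.104). Hbs1l-/- MEFs stood at 61.3, 56.7 and 57.6 CPM against 53.2, 56.4 and 52.2, a log2 difference of 0.12 (SE 0.078, adjusted p = 0.252). The libraries labelled Upf2-/- stood at 59.1, 52.3 and 61.9 against 51.9, 57.3 and 51.4, with the same log2 difference of 0.12 (SE 0.085, adjusted p = 0.278).

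Acan, which encodes the core protein of aggrecan, rose in 2 of the 3 sets. Hbs1l-/- MEFs gave 45.3, 65.1 and 33.1 CPM against 27, 21.1 and 29.6 in controls. All mutant libraries were above all controls, although the mutant values differed among themselves nearly as much as from the controls. The log2 change was 0.86 (SE 0.19, adjusted p = 0.0034). The libraries labelled Upf2-/- gave a tighter 39.5, 40.4 and 46.7 CPM against 24.8, 22.8 and 27.1, a log2 change of 0.78 (SE 0.097, adjusted p = 9.29e-05). In Pelo-/- MEFs Acan was at 28.2, 17.6 and 37.4 CPM against 28.1, 21.9 and 27.5, on both sides of the controls, with a log2 difference of 0.12 (SE 0.22, adjusted p = 0.708).

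Hapln1, the link protein that ties aggrecan to hyaluronan, was scarce in MEFs and did not pass the test with all libraries in. Its footprints were at 1.46, 6.61 and 0.53 CPM in Hbs1l-/- MEFs against 1.81, 0.604 and 0.533, with 1 mutant library high and the other 2 among the controls (log2 difference 1.29, SE 0.72, adjusted p = 0.187). The Pelo-/- libraries were at 2.44, 0.91 and 4.86 CPM against 2.1, 1.05 and 0.444, with a log2 difference of 1.23 (SE 0.61, adjusted p = 0.129). The groups overlapped in both sets. In the libraries labelled Upf2-/- it was at 0.827, 0.971 and 1.09 against 2.25, 1.26 and 0.915, with a log2 difference of -0.59 (SE 0.41, adjusted p = 0.273). Single libraries decided these values. Without Hbs1l replicate 2, the high one, the log2 difference in Hbs1l-/- MEFs was 0.083, and without Hbs1l replicate 3 it was 1.83 and called (adjusted p = 0.0422). Without Pelo replicate 3 the difference in Pelo-/- MEFs was 0.48, and without Pelo replicate 2 it was 1.63 and called (adjusted p = 0.0203).

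Among the matrilins, Matn3, which is made mainly in growing cartilage, fell in 2 sets. In Pelo-/- MEFs it was at 2.44, 1.82 and 2.45 CPM against 5.77, 6.15 and 5.33. The highest mutant value was under the lowest control by more than the spread of either group. The log2 change was -1.35 (SE 0.2, adjusted p = 0.000456). The libraries labelled Upf2-/- gave 1.99, 2.91 and 3.39 CPM against 5.63, 5.06 and 6.68, again without overlap, with a log2 change of -1.02 (SE 0.23, adjusted p = 0.00376). Hbs1l-/- MEFs gave 3.69, 6.44 and 3.36 CPM against 6.91, 5.66 and 6.31. Of these 3 libraries, 2 lay below the controls and 1 among them, and the log2 difference of -0.56 (SE 0.24) missed the threshold with an adjusted p of 0.086. Without Hbs1l replicate 2 it was -0.83 and called (adjusted p = 0.0126).

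Matn4, a matrilin found in many tissues, had its values below the controls in 2 of 3 sets without passing the test. It was at 2.72, 2.81 and 2.83 CPM in Hbs1l-/- MEFs against 3.97, 3.47 and 3.55 (log2 difference -0.40, SE 0.23, adjusted p = 0.203). In the libraries labelled Upf2-/- it was at 2.65, 1.94 and 3.26 CPM against 4.29, 4.13 and 3.66. That log2 difference of -0.64 (SE 0.24) had an adjusted p of 0.0501, at the edge of the threshold, and was called with RLE factors (0.0489), with controls summed over the sets (0.0485) and without Upf2-labelled replicate 3 (-0.84, adjusted p = 0.0288). In Pelo-/- MEFs it was at 2.08, 2 and 4.36 CPM against 4.55, 3.56 and 3.73, so the groups overlapped (log2 difference -0.45, SE 0.31, adjusted p = 0.276). Without Pelo replicate 3, the high library, the difference was -0.94 and called (adjusted p = 0.0136). Matn1, the cartilage matrix protein for which the family was named, had 0 to 28 counts per MEF library. It passed the filter in Hbs1l-/- MEFs alone, where 1, 7 and 14 counts stood against 17, 2 and 0 (log2 difference 0.44, SE 0.95, adjusted p = 0.757).

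Epyc, a small proteoglycan of growing epiphyses, was near the detection limit in every control set, and its counts are given. Pelo-/- MEFs had 88, 26 and 199 counts against 5, 5 and 4, which is 5.24, 1.58 and 7.61 CPM against 0.437, 0.405 and 0.356. Every mutant library was above every control, and the mutant libraries differed widely among themselves. The fitted log2 difference was 3.59 (SE 0.62, adjusted p = 0.00112). The libraries labelled Upf2-/- had 20, 22 and 11 counts against 5, 6 and 2 (3.31, 1.94 and 1.49 CPM against 0.352, 0.399 and 0.141), a fitted log2 difference of 2.83 (SE 0.46, adjusted p = 0.000506). A gene this low in controls enters the test only where the knockout-labelled libraries are high, so both calls are given as values and not as support. Hbs1l-/- MEFs had 20, 3 and 10 counts against 9, 4 and 1 and did not pass the filter. Chad, which binds collagen and integrins, had 8, 0 and 44 counts in Pelo-/- MEFs against 9, 2 and 0, and was below the filter in all 3 sets.

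The calls on Acan and Matn3 held under each of the 11 alternatives tried for each. The 4 scarcest members stood out in 2 libraries. Hapln1, Matn1, Chad and Epyc summed to 15.1 CPM in Pelo replicate 3 and 9.58 in Hbs1l replicate 2. They summed to 2.61 to 8.28 in the other knockout-labelled MEF libraries and 0.622 to 4.86 in controls. Col9a1, which encodes a cartilage collagen, was at 5.32 and 6.94 CPM in those 2 libraries and at 0 to 3.17 in all others. Without these libraries the Hapln1 differences were 0.083 (Hbs1l) and 0.48 (Pelo), and the Epyc difference in Pelo-/- MEFs was 3.07 (adjusted p = 0.00175). Acan too was highest in these libraries among those of their genotype. Without them its log2 change was 0.61 in Hbs1l-/- MEFs, still called, and its difference -0.17 in Pelo-/- MEFs (adjusted p = 0.501). For Chad, below the filter, this was not tested. Osteoblast markers summed to 838 to 1193 CPM in Hbs1l-/- MEFs against 515 to 719, to 850 to 1204 in Pelo-/- MEFs against 517 to 715, and to 572 to 656 against 517 to 733 in the libraries labelled Upf2-/-. Bglap2 was at 0 in the knockout-labelled libraries of all 3 sets. Macrophage markers were called higher for 5, 6 and 3 of 6 in the same order and lower for 0, and fibroblast markers higher for 8, 8 and 7 and lower for 1, 1 and 2 of 10, where 34.1, 44.1 and 43.4% of all genes were called. Skeletal muscle precursor markers were lower for 3 of 3 tested in Hbs1l-/- MEFs, with a summed level of 3.47 to 4.42 CPM against 9.69 to 18.8 and Myf5 at 0 in the mutant. In Pelo-/- footprints, where Sox9 was higher, 4 of 4 osteoblast markers, 4 of 5 neural and neural crest markers and 3 of 4 epithelial markers tested were called higher and 0, 1 and 1 lower. The summed level of the neural and neural crest list was nevertheless 64.9 to 65.9 CPM against 79.3 to 89.4, and that of the epithelial list 22.6 to 31.7 against 35.9 to 51.5. The part of these markers in the values was not tested.

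**Figure D3:**
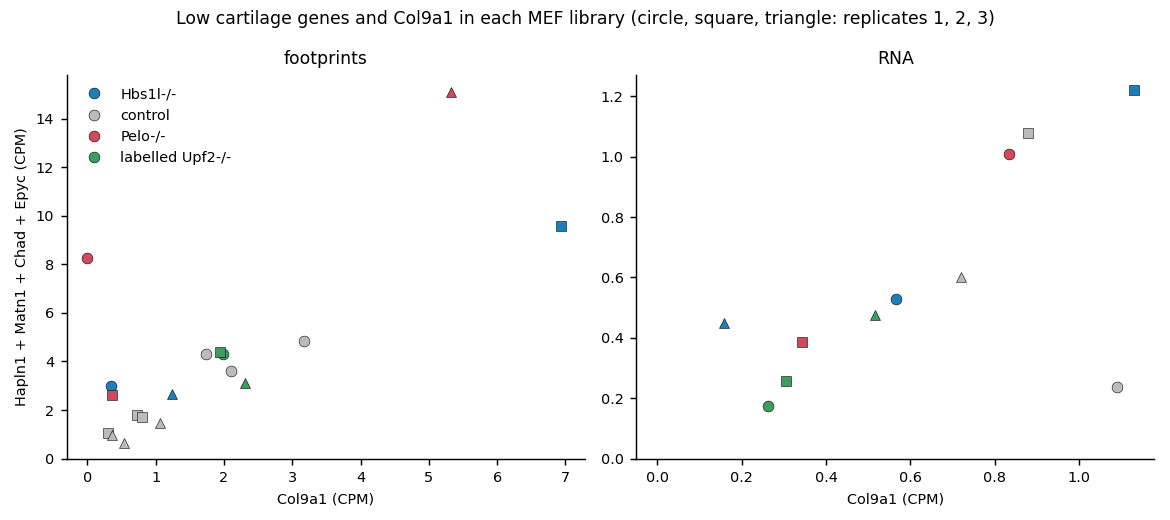
Summed CPM of the 4 scarcest members (Hapln1, Matn1, Chad and Epyc) against the CPM of Col9a1 in each MEF library, for footprints and for RNA. Pelo replicate 3 (15.1 and 5.32) and Hbs1l replicate 2 (9.58 and 6.94) lie apart from the other footprint libraries.

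At the level of RNA, only Sox9 in Pelo-/- MEFs was called against controls. It rose 1.65-fold, while Matn3, whose footprints fell in the same cells, had an RNA level near that of controls. In Hbs1l-/- MEFs 0 of 5 members were called by edgeR against 23.1% of all genes; 1 had an unadjusted p under 0.05, and DESeq2 and limma called 0. The Pelo-/- samples gave 1 call of 5 against 32.1%. In the libraries labelled Upf2-/- 0 of 4 were called against 20%; 1 had an unadjusted p under 0.05, DESeq2 called 1 and limma 0.

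Sox9 RNA was at 8.72 and 8.15 TPM in the 2 Pelo-/- samples against 4.24, 5.34 and 4.39 in controls, which is 26.9 and 27.7 CPM against 17.3, 18.4 and 15.7. Both mutant samples were above all controls. The log2 change in CPM was 0.73 (SE 0.12, adjusted p = 0.00482). Hbs1l-/- MEFs were at 24.7, 20.8 and 18.4 CPM, with the lowest mutant beside the highest control, and gave 0.33 (SE 0.14, adjusted p = 0.127). The libraries labelled Upf2-/- were at 14.6, 21.6 and 17.6 and gave 0.090 (SE 0.16, adjusted p = 0.72). In Pelo-/- RNA, where Sox9 was higher, 2 of 2 epithelial markers tested were called higher. Neural and neural crest markers were higher for 1 of 5 and lower for 1. The part of these markers in the Sox9 value was not tested.

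Acan RNA was at 2.75, 4.72 and 5.31 CPM in controls and at 1.61, 3.51 and 1.82 in the libraries labelled Upf2-/-. The groups overlapped and control replicate 1 was the low one. The log2 difference was -0.86 (SE 0.31, adjusted p = 0.0731), opposite in sign to the change in footprints. It was called by DESeq2 (adjusted p = 0.0228), without a filter, with the replicate block, and without Upf2-labelled replicate 2 (-1.27) or control replicate 1 (-1.08). Hbs1l-/- MEFs were at 8.39, 6.15 and 3.13 CPM (log2 difference 0.45, SE 0.35, adjusted p = 0.371), and Pelo-/- MEFs at 5.51 and 3.51 (0.11, SE 0.30, adjusted p = 0.802). Kallisto divides Acan reads between the full-length transcript Acan-201 and the shorter Acan-202 of 2596 bases. Acan-202 took 12.3 to 16.6% of the gene's estimated counts in controls, 13.6 to 21.4% in Hbs1l-/-, 18.2 to 28.2% in Pelo-/- and 0 to 28.6% in the libraries labelled Upf2-/-. In the libraries labelled Upf2-/- the share thus ran from none to the highest of all samples, and the split was not tested.

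Matn3 RNA was at 0.996, 1.04 and 0.853 CPM in controls and at 1.05 and 0.814 in Pelo-/- MEFs, a log2 difference of 0.029 (SE 0.28, adjusted p = 0.95). The samples of both groups were interleaved. It was at 0.753, 0.791 and 0.537 in Hbs1l-/- MEFs (log2 difference -0.44, SE 0.26, adjusted p = 0.252) and at 0.613, 0.772 and 0.495 in the libraries labelled Upf2-/- (-0.57, SE 0.28, adjusted p = 0.173), below all controls in both but not past the threshold. Matn4 was at 1.52, 2.04 and 1.73 CPM in controls and at 2.21 and 2.27 in Pelo-/- MEFs (0.39, SE 0.22, adjusted p = 0.2), with log2 differences of -0.014 and 0.028 in the other 2 sets. A transcript with a retained intron, Matn4-205, held 18.4 to 22.6% of its counts in controls and 10.4 to 16.7% in Hbs1l-/- MEFs. In Pelo-/- MEFs it held 16 to 25.5% and in the libraries labelled Upf2-/- 12.3 to 23.3%, both overlapping the controls, and the split was not tested. Hapln1 ranged from 1 to 34 counts in controls and from 2 to 49 in the other samples. Its log2 difference was -0.20 in Hbs1l-/- MEFs and -0.69 in Pelo-/- MEFs, with standard errors of 0.64 and 0.81, and with 1 library left out the Pelo value ran from -1.51 to -0.19.

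Epyc RNA was found at 1, 2 and 4 counts in controls, 3 and 0 in Pelo-/- MEFs, 2, 4 and 2 in the libraries labelled Upf2-/- and 2, 26 and 5 in Hbs1l-/- MEFs. No rise beside the Pelo footprints was thus detectable at this depth, and the one high sample was Hbs1l-/- replicate 2. Chad had 1 to 20 counts with 0 in 1 library, and Matn1 1 to 10.

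**Figure D4:**
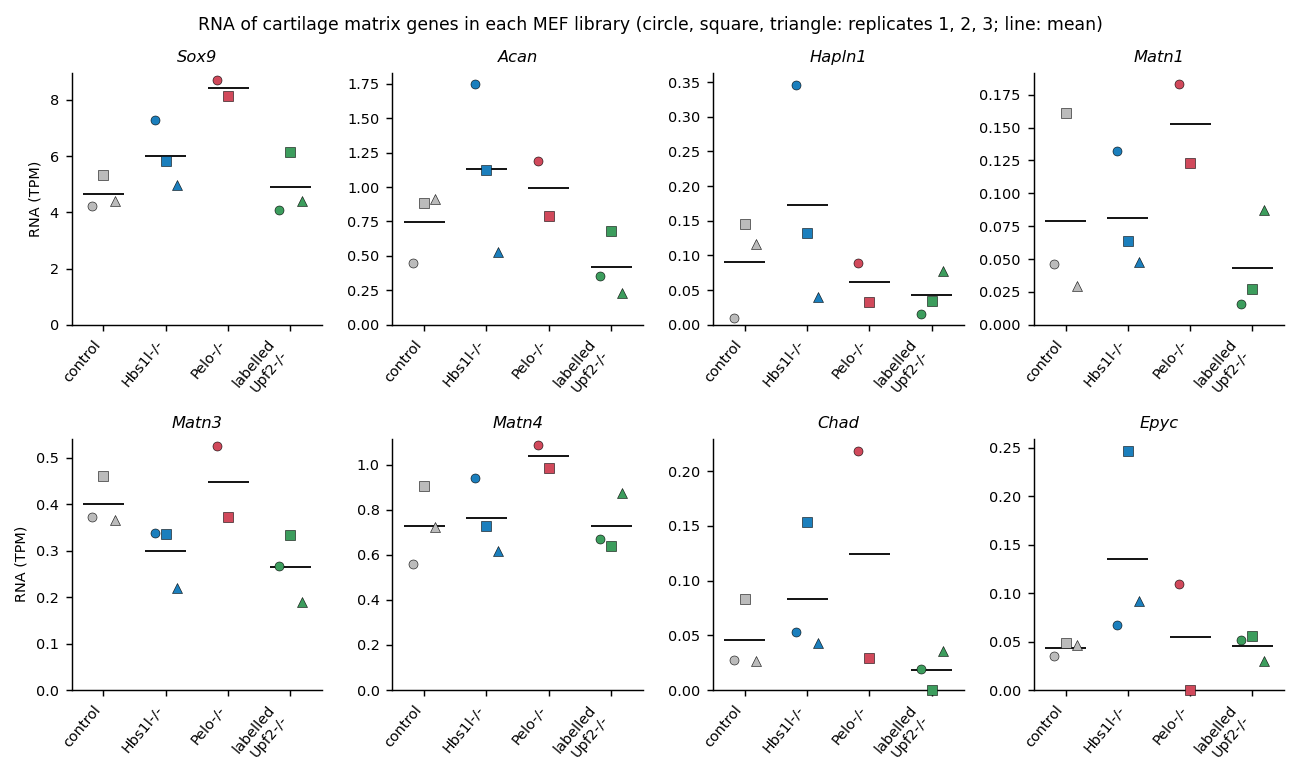
RNA level (TPM) of each of the 8 genes in every MEF RNA library, 1 panel per gene, with a point for each replicate and a bar at the mean. Sox9 in both Pelo-/- samples (8.72 and 8.15 TPM) lies above the other groups, and Epyc, Chad and Matn1 are close to 0 throughout.

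Translation efficiency (TE) is the change in footprints beyond the change in RNA, tested here as the interaction of assay and genotype. Matn3 fell 2.61-fold in TE in Pelo-/- MEFs, and Acan rose 3.08-fold in the libraries labelled Upf2-/-. No member was called in Hbs1l-/- MEFs. The call covered 1 of 5 members in Pelo-/- MEFs, where 44.6% of genes were called, and 1 of 4 in the libraries labelled Upf2-/-, where 20.3% were. In Hbs1l-/- MEFs it covered 0 of 5, where 0.0336% of genes (4 of 11907) were called; 0 had an unadjusted p under 0.05 and DESeq2 called 0.

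The log2 change in TE of Matn3 in Pelo-/- MEFs was -1.39 (SE 0.32, adjusted p = 0.00356), beside -1.35 in footprints. In Hbs1l-/- MEFs it was -0.12 (SE 0.37) and in the libraries labelled Upf2-/- -0.50 (SE 0.35, adjusted p = 0.321). Acan in the libraries labelled Upf2-/- changed by 1.62 (SE 0.32, adjusted p = 0.00309), the sum of a rise in footprints that passed its test and a drop in RNA that did not. Its values in the other sets were 0.48 (SE 0.43, adjusted p = 0.578) for Hbs1l and 0.039 (SE 0.41, adjusted p = 0.949) for Pelo. For Sox9 the TE difference in Pelo-/- MEFs was -0.36 (SE 0.17, adjusted p = 0.0963), as its RNA was higher by more than its footprints. Without a Pelo footprint library, 2 uncalled TE values became calls: Sox9 at -0.47 (adjusted p = 0.0279, without replicate 2) and Matn4 at -1.33 (adjusted p = 0.0038, without replicate 3). Both calls held under all 15 (Matn3) and 16 (Acan) alternatives. Hapln1 gave uncalled log2 TE differences of 1.46 in Hbs1l-/- MEFs and 1.97 in Pelo-/- MEFs. With 1 library left out these ran from 0.26 to 2.5 and from 1.21 to 2.78. Epyc, Chad and Matn1 did not have enough RNA counts for a TE value, nor did Hapln1 in the libraries labelled Upf2-/-.

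**Figure D5:**
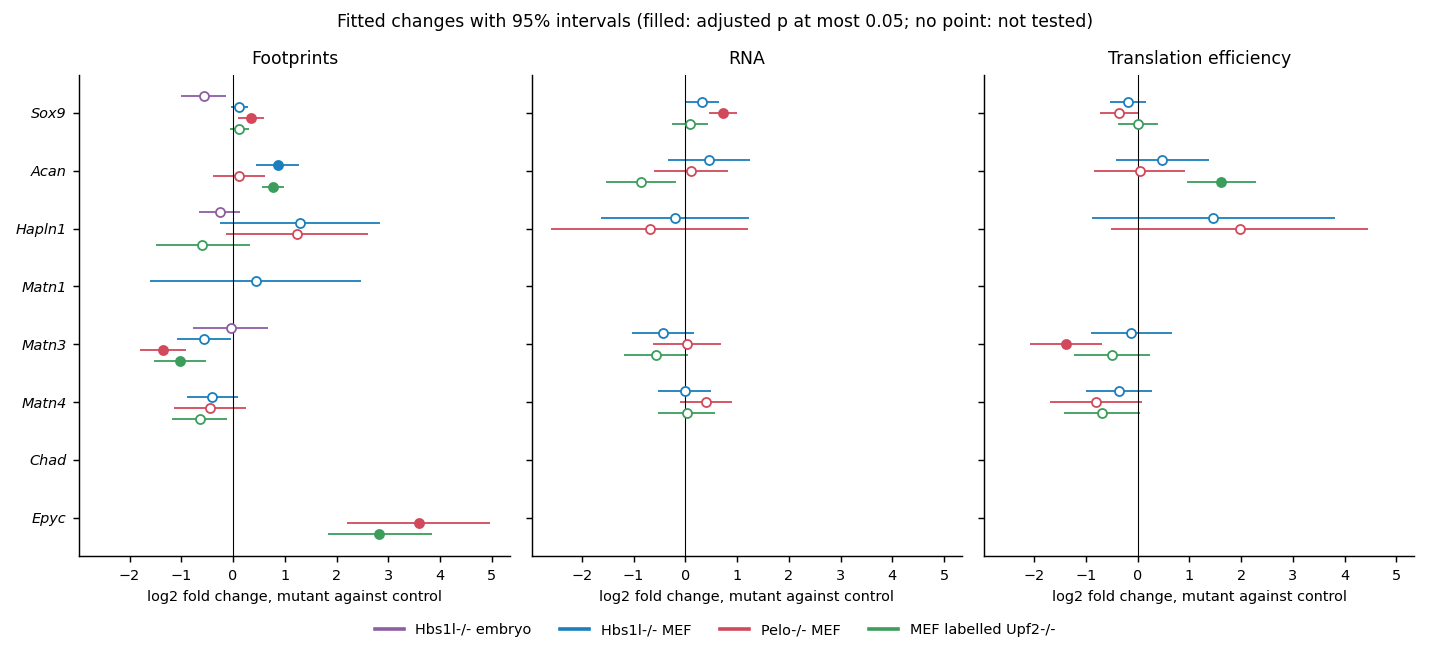
Log2 fold change of each tested member with its 95% confidence interval, in panels for footprints, RNA and TE, by knockout-labelled set. Filled points passed an adjusted p of 0.05. Epyc at 3.59 and 2.83 has the largest values among them, having entered both tests only through the libraries where it is high. Matn3 lies below 0 in footprints in all 3 MEF sets.

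Whether the sets differed from each other was tested directly. For footprints, the differences between the effects were fitted over 2 sets at a time, each with its own controls. Between MEF sets these fits treat the controls as independent although they share material, so their standard errors do not take the sharing into account. An uncalled difference therefore does not show that 2 effects are equal. The Pelo effect minus the Hbs1l effect was called for 0 of 7 members against 5.55% of all genes (1 with an unadjusted p under 0.05, DESeq2 0). For Upf2-labelled minus Hbs1l it was 0 of 7 against 4.93% (0 and 0), and for Pelo minus Upf2-labelled 0 of 7 against 13% (1 and 0). The member nearest the threshold in the last was Acan at -0.66 (SE 0.28, adjusted p = 0.145). Same-numbered controls of the sets are shared material, but the replicate block pairs libraries by number only within each set. Within a set the numbers did not pair knockout-labelled libraries with controls. With that block Acan was called (-0.71, adjusted p = 0.0232), as it was without Pelo replicate 3 (-0.94, adjusted p = 0.0145). With the controls summed per replicate number it was not called. Epyc gave 2.23 (SE 1.08, adjusted p = 0.276) for Pelo minus Hbs1l and 0.74 (SE 1.03, adjusted p = 0.7) for Pelo minus Upf2-labelled, which ran from 1.33 (without Hbs1l-set control replicate 1) to 2.68 and from 0.22 (without Pelo replicate 3) to 1.15 with 1 library left out. Matn3 gave -0.79 (SE 0.32, adjusted p = 0.184) for Pelo minus Hbs1l, and Acan -0.74 (SE 0.35, adjusted p = 0.268). With the 3 control sets summed per replicate number, an alternative added after the data were seen, the Pelo minus Hbs1l difference was called for Matn3 and also for Epyc, which enters this test through the high Pelo libraries. The effect of Hbs1l in embryos minus that in MEFs was called for 0 of 5 members against 7.46% of genes (1 with an unadjusted p under 0.05). Sox9 was the nearest at -0.68 (SE 0.22, adjusted p = 0.0668). DESeq2 called it, as did the test without Hbs1l-/- embryo replicate 1 (-0.75) or wild-type replicate 1 (-0.81).

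For RNA the knockout-labelled sets were compared with each other without the shared controls. Pelo against Hbs1l called 1 of 4 members, against 35.2% of genes: Sox9, higher by 0.44 (SE 0.15, adjusted p = 0.0484). The Upf2-labelled against the Hbs1l-/- samples called 1 of 4, against 27.1%: Acan, at -1.30 (SE 0.38, adjusted p = 0.03). Pelo against the Upf2-labelled samples called 2 of 4, against 28.9%: Sox9 at 0.66 (SE 0.16, adjusted p = 0.0159) and Acan at 1.01 (SE 0.33, adjusted p = 0.0478). Each of these 4 calls was lost when some single library was left out, with a highest adjusted p over the alternatives of 0.22, 0.097, 0.113 and 0.328 in the order given. Cell type markers moved in the same contrasts. In Pelo against Hbs1l 4 of 4 skeletal muscle precursor and 3 of 6 cardiomyocyte markers were higher. In Upf2-labelled against Hbs1l 7 of 10 fibroblast and 5 of 6 macrophage markers were lower, and 1 and 0 higher. There 4 of 7 cardiomyocyte and 2 of 3 skeletal muscle precursor markers were higher, and 0 of either lower. In Pelo against Upf2-labelled 5 of 10 fibroblast markers were higher. Their part in the Sox9 and Acan values was not tested.

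The relatives of the members gave them context. Of 89 other genes in 8 lists of cartilage-related function, 19 rose and 12 fell of 68 tested in Hbs1l-/- MEF footprints, 26 and 15 of 74 in Pelo-/- MEFs, and 15 and 13 of 71 in the libraries labelled Upf2-/-. These are 45.6, 55.4 and 39.4% of the genes tested, against 34.1, 44.1 and 43.4% of all genes. In RNA the counts were 13 and 8 of 76, 15 and 7 of 74, and 4 and 9 of 74, or 27.6, 29.7 and 17.6% against 23.1, 32.1 and 20%. In TE they were 0 and 0 of 68, 16 and 15 of 71, and 13 and 3 of 69, or 0, 43.7 and 23.2% against 0.0336, 44.6 and 20.3%. Most of these shares lie near the background. The lists were chosen with earlier results of these data known, so neither their shares nor their directions are independent evidence.

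The list of other matrilins and leucine-rich repeat proteins, the relatives of Matn3, Chad and Epyc, rose in footprints for 7 of 10 genes in Hbs1l-/- MEFs, 6 of 12 in Pelo-/- MEFs and 7 of 10 in the libraries labelled Upf2-/-. In the same order 1, 0 and 1 fell, so that 80, 50 and 80% were called against 34.1, 44.1 and 43.4% of all genes. The Pelo share is near its background and holds Kera, which passed the filter only through the mutant libraries. The list's median log2 differences were 0.84, 0.74 and 0.72, beside medians of all genes between -0.0069 and 0.0037. As the list was chosen with earlier results known, its shares and medians are description only. In the same footprint comparisons fibroblast markers were called higher for 8, 8 and 7 of 10 and lower for 1, 1 and 2. The part of these markers in the list's values was not tested. Lum, which encodes lumican and sits in the same family as Epyc, was at 155 ± 65.7 CPM in Pelo-/- MEFs against 13.1 ± 1.55 (log2 change 3.57, SE 0.30, adjusted p = 1.3e-05). It rose by 1.89 in Hbs1l-/- MEFs and 2.28 in the libraries labelled Upf2-/-. Dcn, which encodes decorin, rose by 0.76, 1.86 and 1.46 in the same order (Hbs1l, Pelo, Upf2-labelled), and Prelp by 1.26, 2.66 and 2.1. The Prelp groups overlapped in Hbs1l-/- MEFs. Matn2, the matrilin not among the members, rose by 0.93, 1.19 and 0.35, whereas Matn3 fell in Pelo-/- MEFs and in the libraries labelled Upf2-/-. In the Upf2-labelled set the Matn2 groups overlapped, and in Hbs1l-/- MEFs the Matn3 difference was not called. Optc, which encodes opticin, fell by 0.77 in Hbs1l-/- MEFs and by 0.88 in the libraries labelled Upf2-/-.

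In RNA of this list 4 of 11 genes rose and 1 fell in Hbs1l-/- MEFs, with Lum at 5.98 ± 1.82 CPM against 1.4 ± 0.43 (log2 change 2.05, SE 0.28, adjusted p = 0.00226). In Pelo-/- MEFs 1 of 10 rose and 2 fell, Aspn by 2.08 and Ogn by 1.99 on the log2 scale. In the libraries labelled Upf2-/- 0 of 11 rose and 2 fell, among them Fmod, which encodes fibromodulin, with a log2 change of -1.0 (SE 0.20, adjusted p = 0.00692). The shares called in RNA were 45.5, 30 and 18.2%, against 23.1, 32.1 and 20% of all genes, so only the first is above its background. In that RNA comparison, Hbs1l-/- MEFs against controls, 5 of 10 fibroblast and 4 of 6 macrophage markers were higher and 1 and 0 lower. Skeletal muscle precursor markers were lower for 3 of 4 and higher for 0. The part of these markers in the list's values was not tested. TE of the list was called for 0 of 10 genes in Hbs1l-/- MEFs (median log2 difference -0.041), and rose for 7 of 10 in Pelo-/- MEFs and 6 of 9 in the libraries labelled Upf2-/-, against 0.0336, 44.6 and 20.3% of all genes called in either direction. Prelp had the largest rise of the list in both, at 3.71 (SE 0.59, adjusted p = 0.00027) and 3.00 (SE 0.49, adjusted p = 0.00111).

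The cartilage collagens, to which the members' proteins attach, fell where they were called, with 1 exception. In Hbs1l-/- MEF footprints 2 of 8 fell, 3 of 7 in Pelo-/- MEFs and 3 of 8 in the libraries labelled Upf2-/-, where Col9a2 rose by 1.58. The shares called, 25, 42.9 and 50%, are below or near those of all genes (34.1, 44.1 and 43.4%). Col2a1 was at 48.7 ± 28.6 CPM in Pelo-/- MEFs against 512 ± 76.8 (log2 change -3.38, SE 0.32, adjusted p = 2.81e-05) and changed by -1.08 in Hbs1l-/- MEFs and -1.01 in the libraries labelled Upf2-/-. Col11a1, its fibril partner, changed by -0.71, -2.04 and -0.73 in the order Hbs1l, Pelo and Upf2-labelled. Col2a1 RNA in Pelo-/- MEFs, at 226 ± 21 CPM (n = 2) against 223 ± 29.3, showed no such drop, and the TE change was -3.43 (SE 0.41, adjusted p = 3.19e-05). Its RNA fell by 0.93 in Hbs1l-/- MEFs (adjusted p = 0.013), and in the libraries labelled Upf2-/- the difference was -0.41 (adjusted p = 0.07). In RNA, Col11a1 fell by 1.05 in Hbs1l-/- MEFs and by 1.0 in the libraries labelled Upf2-/-.

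The list of hyaluronan synthases, hyaluronan receptors and related proteoglycans rose for 3 of 5 genes in Hbs1l-/- footprints and 4 of 6 in Pelo-/- footprints with 0 lower, and went both ways, 1 and 1 of 5, in the libraries labelled Upf2-/- (60, 66.7 and 40% called, against 34.1, 44.1 and 43.4% of all genes). Each count of rises includes Has1. This hyaluronan synthase was at 3.47 ± 0.868 CPM in Hbs1l-/- MEFs against 0.466 ± 0.254 (log2 difference 2.81, SE 0.41, adjusted p = 0.000152), and was higher by 2.72 in Pelo-/- MEFs and by 2.80 in the libraries labelled Upf2-/-. Has1 was too low in controls to pass the filter there, and entered each of these tests only through the knockout-labelled libraries, so its calls and the list's counts are values and not support. Of 10 other secreted cartilage proteins, 2, 4 and 3 passed the filter, too few for a count to be read. The receptor Cd44 rose in Pelo-/- RNA from 438 ± 63.2 to 910 ± 10.8 CPM (log2 change 1.10, SE 0.14, adjusted p = 0.0022). Among the enzymes of glycosaminoglycan synthesis, 1 rose and 4 fell of 12 in Hbs1l-/- footprints, 2 and 4 of 13 in Pelo-/- and 1 and 2 of 13 in the libraries labelled Upf2-/-, shares of 41.7, 46.2 and 23.1% that are near or below the background. Papss2, which makes the sulfate donor, fell by 0.74 and Chst3, which passed the filter only through the knockout-labelled libraries, was higher by 2.35 in the last of these. The list of matrix proteases and their inhibitors (Timp1, Timp2 and Timp3) went both ways (2 and 2, 5 and 3, and 3 and 3 of 10). The shares called were 40, 80 and 60%, against 34.1, 44.1 and 43.4% of all genes. Timp2 fell in all 3 sets, by 0.49, 0.56 and 0.55. Mmp3, a secreted matrix protease, was at 55.5 ± 12.8 CPM of footprints in Pelo-/- MEFs against 3.09 ± 0.695 (log2 change 4.15, SE 0.22, adjusted p = 5.96e-07). Adamts5, the main aggrecan-cleaving protease, fell in all 3 sets. Its footprints were at 68.3 ± 6.39 against 125 ± 6.64 CPM in Hbs1l-/- MEFs and fell by 1.05 in Pelo-/- MEFs and 0.41 in the libraries labelled Upf2-/-, and its RNA fell by 0.93, 0.71 and 0.53 in the order Hbs1l, Pelo and Upf2-labelled. Of the other transcription factors of chondrogenesis, 3 rose and 1 fell of 11 tested in Hbs1l-/- MEFs and 4 and 3 of 11 in Pelo-/- MEFs. In the libraries labelled Upf2-/- 1 rose and 1 fell of 11. The shares called were 36.4, 63.6 and 18.2%, against 34.1, 44.1 and 43.4% of all genes. The rises include Runx3 (Hbs1l and Pelo) and Barx1 (the 1 rise in the Upf2-labelled set), which passed the filter only through the knockout-labelled libraries. Growth plate signalling genes rose and fell for 1 and 2 of 10, 2 and 2 of 11, and 0 and 2 of 11. Their shares called, 30, 36.4 and 18.2%, are below those of all genes. Bmp2, 1 of the 2 Pelo rises, passed the filter only through the knockout-labelled libraries. Runx3 was higher by 1.70 in Hbs1l-/- MEFs, and Sox5, the co-factor of Sox9, fell by 0.90 in Pelo-/- MEFs.

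The remaining genes of the lists with the largest called changes were the following. In footprints of Pelo-/- MEFs, Cilp, a protein of the middle cartilage layer, was at 3.03 ± 1.6 CPM against 0.258 ± 0.0912 (log2 difference 3.55) and passed the filter only through the mutant libraries, while Col10a1, the collagen of hypertrophic chondrocytes, fell by 1.72. In RNA of Hbs1l-/- MEFs the joint growth factor Gdf5 rose by 2.05, while Papss2 fell by 0.93. The Hedgehog target Gli1, at 0.432 ± 0.0618 CPM against 0.1 ± 0.0653 (log2 difference 1.82), passed the filter only through the mutant samples. In RNA of Pelo-/- MEFs Ccn2 and Chsy1 rose by 0.90 and 0.87, and the growth factor Bmp4 fell by 0.81. In RNA of the libraries labelled Upf2-/-, the glycosaminoglycan enzymes B4galt7, Xylt2 and Chpf rose by 0.66, 0.59 and 0.58, and Col9a1 fell by 1.23. In TE of Pelo-/- MEFs the collagenase Mmp13 rose by 3.66 and Mmp3 by 3.64, while the transcription factor Pax1 fell by 1.99 and Col11a1 by 1.75. In TE of the libraries labelled Upf2-/-, Col9a2 rose by 2.26 and Has1, under the limit given above, was higher by 2.38, while Chst11, B4galt7 and the protease inhibitor Timp2 fell by 0.56, 0.52 and 0.49.

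Only Sox9 was abundant enough in RNA, at a mean of 20.3 CPM over 11 libraries, to ask which genes varied like it. Of 9911 genes at 5 CPM or more, Trib1 (Pearson r = 0.954), Hgsnat (0.954) and Qsox2 (0.939) followed it most closely over the 11 MEF libraries. The libraries share 4 genotypes, so these values describe a likeness across groups and samples and carry no test.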

How the data were processed

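The submitters' processing notes and the study's methods describe ribosome footprints aligned to mm10 after removal of rRNA, with Bowtie2 2.2.3 and HISAT2 2.1.0 named, and counted over coding exons with featureCounts; the authors deposited raw counts per gene (Gencode M24). For RNA the authors deposited kallisto 0.42.4 estimated counts and TPM per transcript. The RNA kit marks strand. Here the transcripts' estimated counts were added up for each gene and rounded to whole numbers, and their TPM were added up likewise. Levels are CPM with TMM factors.

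Tests used edgeR 4.0.16 (R 4.3.3): TMM factors, filterByExpr with a minimum count of 10, the quasi-likelihood test, and Benjamini-Hochberg adjustment over all genes tested, with calls at an adjusted p of at most 0.05. Footprint and TE tests excluded 100 histone genes, recognised by symbol. TE was the assay by genotype interaction, with factors computed within each assay. Fold changes are on the fitted log2 scale. DESeq2 1.42.0, RLE factors, no filter, the replicate number as a block, each replicate left out, controls summed over sets and, for RNA, limma 3.58.1 on log2(TPM + 1) or log2(TPM + 0.1) were tried as alternatives. On simulated counts with 200 changed genes, the test recovered 52% of log2 changes of 1 and 98% of changes of 2 in the embryo comparison (11416 genes). It recovered 87% and 96% in the Pelo footprint comparison (12486 genes), 72% and 94% in Pelo RNA, and 71% and 90% in Pelo TE. For the Pelo minus Hbs1l footprint effect the shares were 65% and 91%. The simulation changed 200 genes, whereas 5502 were called in the Pelo footprint data. Intervals are 95% confidence intervals of the fitted log2 difference and do not give the range of single samples. Low counts limit the precision of Epyc, Chad, Matn1 and Hapln1.

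The 8 members, the 8 lists of 89 related genes and the 14 lists of 94 marker genes were chosen with earlier results of these data known. Their directions and shares called are thus not independent evidence. Related genes were named in each comparison as up to 3 with the largest rise and up to 3 with the largest fall among those called without overlap of groups; Dcn, Matn2, Col9a1, Col9a2, Sox5, Prelp, Timp2, Barx1, Bmp2 and Kera in footprints, Has1 and Runx3 in Pelo footprints, Col11a1 in Hbs1l and Upf2-labelled footprints, Adamts5 in the Pelo and Upf2-labelled sets, and Col2a1 in RNA were named after their values were seen. Genes like a member in RNA were the 3 with the highest Pearson r of log2 CPM (prior count 2), for members with a mean of at least 5 CPM. Coordinates and coding lengths came from the Gencode M21 annotation (GRCm38) and promoters from RefSeq, which was searched on both strands.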

Additional observations from a re-analysis of the deposited data

Results flagged for a closer look

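In RNA, 4 differences between knockout-labelled sets passed the test of the difference itself. They are 1 of 4 members tested for Pelo against Hbs1l, where 35.2% of all genes were called. For Upf2-labelled against Hbs1l they are 1 of 4 against 27.1%, and for Pelo against Upf2-labelled 2 of 4 against 28.9%. With so few members tested, the counts themselves are not a result about these genes. Sox9 was higher in Pelo-/- than in Hbs1l-/- MEFs, with a log2 difference of 0.44 (SE 0.15, adjusted p = 0.0484, edgeR). Both Pelo samples were above all 3 Hbs1l samples, but the call held under 3 of 9 alternatives. It was lost with RLE factors, with the replicate block, and without Pelo replicates 1 or 2 or Hbs1l replicates 2 or 3. In that contrast 4 of 4 skeletal muscle precursor and 3 of 6 cardiomyocyte markers were also higher, and their part in the value was not tested. Sox9 was also higher in Pelo-/- MEFs than in the samples labelled Upf2-/-, by 0.66 (SE 0.16, adjusted p = 0.0159), and that call held under 7 of 9, being lost without either Pelo sample.

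Acan was lower in the samples labelled Upf2-/- than in Hbs1l-/- MEFs, with a log2 difference of -1.30 (SE 0.38, adjusted p = 0.03). In the same contrast 7 of 10 fibroblast and 5 of 6 macrophage markers were also lower, and 1 and 0 higher. There 4 of 7 cardiomyocyte and 2 of 3 skeletal muscle precursor markers were higher, and 0 of either lower. The part of these markers in the Acan value was not tested. The Acan groups overlapped, and the call held under 6 of 10 alternatives, being lost without Upf2-labelled replicates 1 or 3 or Hbs1l replicates 1 or 2. Acan was higher in Pelo-/- MEFs than in the samples labelled Upf2-/-, by 1.01 (SE 0.33, adjusted p = 0.0478). The lowest Pelo-/- sample and the highest Upf2-labelled sample were both at 3.51 CPM, so the groups met, and the call held under 4 of 9, being lost with the replicate block and without either Pelo sample or Upf2-labelled replicates 1 or 3.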

How the results depend on the processing

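Of 857 fold changes of single members recomputed under an alternative, 765 kept their direction and their side of the threshold, 21 lost a call, 23 gained one and 48 changed sign; no called value changed sign.

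Over the fits that left out 1 library each, the number of members called ran from 0 to 2 in embryo footprints (main count 0), 1 to 2 in Hbs1l (1), 2 to 4 in Pelo (3) and 3 to 4 in Upf2-labelled MEF footprints (3). It ran from 0 to 2 in Upf2-labelled RNA (0) and 1 to 2 in Pelo TE (1). For the embryo minus MEF and Pelo minus Upf2-labelled footprint effects it ran from 0 to 1 (0 each). For RNA between knockout-labelled sets it ran from 0 to 1 (1), 0 to 1 (1) and 0 to 2 (2) for Pelo against Hbs1l, Upf2-labelled against Hbs1l and Pelo against Upf2-labelled.

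Other settings moved these counts as follows. DESeq2 called 1 in Upf2-labelled RNA and 1 in the embryo minus MEF effect. Without a filter 2 were called in Upf2-labelled RNA, 2 in Upf2-labelled TE and 4 in RNA of Upf2-labelled against Hbs1l samples. RLE factors left 0 in RNA of Pelo against Hbs1l and, like controls summed over sets, gave 4 in Upf2-labelled MEF footprints, adding Matn4. Controls summed over sets gave 2 in Hbs1l MEF footprints and, added after seeing the data, 2 in the Pelo minus Hbs1l effect (Epyc at 2.27, Matn3 at -0.93). The causes were not tested.

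Replicate numbers did not pair knockout-labelled libraries with controls or with those of another knockout label. In none of the 10 comparisons of 2 groups was every pair's correlation above 0.1 (for Pelo footprints -0.0593 to 0.149). They did pair the control footprint libraries of the 3 MEF sets, a pairing that the replicate block does not use. The replicate block called 1 member in Upf2-labelled RNA (Acan), 1 in the Pelo minus Upf2-labelled effect (Acan), 0 in RNA of Pelo against Hbs1l and 1 in Pelo against Upf2-labelled. It gave -0.098 for Matn3 in Pelo RNA and -0.22 for Acan in Pelo TE.

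Uncalled log2 differences that changed sign when 1 library was left out ranged as follows. In footprints they were Matn3 in embryos (-0.20 to 0.07), Matn1 in Hbs1l (-0.33 to 3.00) and Acan in Pelo MEFs (-0.17 to 0.35). In RNA they were, for Hbs1l, Hapln1 (-1.19 to 0.12) and Matn4 (-0.16 to 0.095), for Pelo, Acan (-0.24 to 0.40) and Matn3 (-0.17 to 0.19), and for Upf2-labelled samples, Sox9 (-0.035 to 0.22) and Matn4 (-0.19 to 0.18). In TE they were Matn3 in Hbs1l (-0.40 to 0.047), Acan in Pelo (-0.25 to 0.38) and Sox9 in Upf2-labelled MEFs (-0.12 to 0.14). Acan did so in the embryo minus MEF effect (-0.87 to 0.28) and the Upf2-labelled minus Hbs1l effect (-0.30 to 0.17). In Hbs1l RNA, limma gave 0.099 (pseudocount 1) and 0.44 (0.1) for Hapln1 and 0.028 and 0.061 for Matn4, which was 0.020 without a filter. In Pelo MEFs, Matn3 RNA was -0.0054 without a filter and Acan TE -0.0042 by DESeq2. Low counts limit Epyc, Chad, Matn1 and Hapln1 throughout.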
